A study of Mus musculus with 6 samples.

Results

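The 5227 gene-body regions described here are stretches of open chromatin inside protein-coding genes that were called in all 6 ATAC-seq libraries of a mouse hematopoietic stem cell study and were not among its strongest. In ATAC-seq the Tn5 transposase cuts and tags DNA where nucleosomes leave it open, and a peak is a place with more cuts than its surroundings. Peaks of the 6 deposited lists on chromosomes 1 to 19 and X were merged where they shared at least 1 bp, which gave 84592 regions. Of these, 19683 were called in every list, and 5532 of those overlapped a protein-coding gene (RefSeq annotation, build mm10) while lying more than 1 kb from both ends of any such gene. The 5227 were chosen by their fold over background, the value the peak caller gave each peak: the mean of its percentile within the 6 lists had to be under 90. They make up 94.5% of the shared gene-body regions, 26.6% of the shared regions and 6.18% of all merged regions.

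Libraries labelled Dek_cKO (3) came from mice in which both Dek alleles are floxed and which carry a Tie2-Cre transgene, in which control DNA of Tek drives the Cre recombinase in endothelial and blood cells. Libraries labelled Dek_fl (3) came from mice with the same floxed alleles and no transgene named. Both groups were C57BL/6 mice at 12 weeks of age in the homeostatic state, and each library was made from about 20000 bone marrow cells sorted for Sca-1, c-Kit and CD150 and against CD48 and markers of mature lineages. The nuclear protein DEK binds chromatin, and its role in how accessible the chromatin of these cells is gives the series its title. The design text speaks of sequencing in duplicate although 3 libraries per group are labelled, so n below counts libraries as labelled. Whether the 3 libraries of a group stem from different animals is not stated, so a p-value here reflects the spread between libraries alone, and that spread may be technical.

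Accessible regions away from gene ends include enhancers, which bind transcription factors and act on promoters at a distance, and promoters of shorter transcripts that start inside a longer gene. An enhancer inside a gene may act on that gene, on a neighbour or on none, so a host gene named below is the gene a region lies in and not a shown target. Long genes of blood transcription factors and signalling enzymes are known to carry many such elements in blood stem and progenitor cells.

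The lists differ in how they were made, and 1 check goes against the labels. The lists labelled Dek_cKO held 70731, 73160 and 27167 peaks in replicates 1, 2 and 3 on the chromosomes used, and those labelled Dek_fl held 52434, 71547 and 23809. Read totals are not known from them. Over the 19683 regions called in all 6 lists the median fold was 7.21, 7.98 and 9.35 in Dek_cKO replicates 1, 2 and 3. In Dek_fl it was 6.06, 6.40 and 8.48. Each Dek_cKO median was thus above the Dek_fl median of the same replicate number. The folds printed below are therefore not on 1 scale, and a higher fold in Dek_cKO is not by itself a higher rank. Both replicate 3 lists were scored by −log10 p and hold no peak with a −log10 p below 5.02, whereas the other 4 lists were scored by −log10 q, so replicate 3 is a processing batch of its own that holds both groups. The Tie2-Cre transgene holds control DNA of Tek, so extra signal at Tek would be looked for in Dek_cKO. Tek has a gene-body region at chr4:94745330-94746933 that was called in none of the libraries labelled Dek_cKO. In all 3 labelled Dek_fl it was called, at folds of 9.20, 9.40 and 11.9. The Tek gene-end region, called in all 6, had a −log10 p of 32.9, 20.5 and 8.59 in Dek_cKO and 260, 576 and 56.6 in Dek_fl. The cause was not tested, and directions below are between libraries as labelled. The region at an end of Dek was called in all 6 and does not check the genotype. Of 9 genes listed as stem cell markers 4 (Kit, Cd48, Ptprc and Cd34) had a gene-end peak in every library. Of these, Cd48 encodes a protein that the cells were sorted against. Slamf1, which encodes CD150, had a gene-end peak in replicates 1 and 2 of both groups and in neither replicate 3 library. Ly6a, which encodes Sca-1, had one in Dek_fl replicate 2 only. Among markers of other cell types Cd8a, Ly6g, Elane, Hba-a1 and Cdh5 had no gene-end peak in any library. Of 4 B cell markers, 4, 4 and 1 had one in the libraries labelled Dek_cKO, against 1, 4 and 0 in those labelled Dek_fl, and of 5 endothelial markers 4, 3 and 1 against 3, 4 and 2. Their part in the results was not tested.

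Some of the regions are placed on transcription starts inside the host gene, and sequence is shown for 5 of them in genes of blood stem cell regulators. Each line gives 300 bases, 250 before to 50 after a start annotated by RefSeq (GRCm38.p6, the assembly of mm10), 5′ to 3′ on the strand of the gene, and capitals mark CpG dinucleotides, which are frequent in promoters of CpG islands. Runx1 and Foxp1 encode transcription factors of blood development, Elf1 an ETS family factor, Dnmt3a a DNA methyltransferase that restrains stem cell self-renewal, and Pik3r1 a regulatory subunit of PI3 kinase.
Runx1 (chr16:92697280-92697579, minus strand): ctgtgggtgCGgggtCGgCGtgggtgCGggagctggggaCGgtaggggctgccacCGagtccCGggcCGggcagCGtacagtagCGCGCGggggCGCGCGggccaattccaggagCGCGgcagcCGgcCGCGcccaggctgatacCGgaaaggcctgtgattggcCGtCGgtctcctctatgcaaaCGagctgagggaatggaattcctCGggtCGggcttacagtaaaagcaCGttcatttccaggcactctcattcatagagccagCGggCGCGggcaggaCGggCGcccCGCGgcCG
Foxp1 (chr6:99028249-99028548, minus strand): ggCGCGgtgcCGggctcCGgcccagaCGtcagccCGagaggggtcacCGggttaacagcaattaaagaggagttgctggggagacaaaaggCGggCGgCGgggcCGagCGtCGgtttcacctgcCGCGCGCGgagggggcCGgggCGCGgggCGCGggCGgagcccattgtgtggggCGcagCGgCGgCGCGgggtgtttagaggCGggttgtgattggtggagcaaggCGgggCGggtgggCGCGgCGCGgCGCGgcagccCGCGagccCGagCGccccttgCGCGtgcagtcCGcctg
Elf1 (chr14:79515424-79515723, plus strand): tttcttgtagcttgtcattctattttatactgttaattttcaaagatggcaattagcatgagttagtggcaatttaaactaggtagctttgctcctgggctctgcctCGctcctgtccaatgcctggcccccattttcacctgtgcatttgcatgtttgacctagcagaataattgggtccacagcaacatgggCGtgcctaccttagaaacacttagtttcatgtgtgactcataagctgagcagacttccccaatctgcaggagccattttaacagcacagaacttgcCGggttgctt
Dnmt3a (chr12:3891494-3891793, plus strand): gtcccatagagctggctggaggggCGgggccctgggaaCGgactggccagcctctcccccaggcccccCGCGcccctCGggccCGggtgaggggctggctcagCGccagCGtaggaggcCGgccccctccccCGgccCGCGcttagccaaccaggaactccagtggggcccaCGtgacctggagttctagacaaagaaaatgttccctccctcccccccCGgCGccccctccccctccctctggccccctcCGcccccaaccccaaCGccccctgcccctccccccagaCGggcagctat
Pik3r1 (chr13:101692581-101692880, minus strand): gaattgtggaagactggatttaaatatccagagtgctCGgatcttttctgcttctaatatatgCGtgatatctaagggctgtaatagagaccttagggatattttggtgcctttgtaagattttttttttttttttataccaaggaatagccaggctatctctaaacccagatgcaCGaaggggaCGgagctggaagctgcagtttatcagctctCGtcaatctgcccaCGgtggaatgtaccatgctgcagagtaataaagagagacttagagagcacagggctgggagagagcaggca
The windows differ in CpG content, with 35 CpGs at Runx1, 44 at Foxp1, 18 at Dnmt3a, 6 at Pik3r1 and 3 at Elf1. All 5 lie in weak to middling regions. The region around the Runx1 start had folds of 4.43, 4.31 and 4.38 in Dek_cKO replicates 1, 2 and 3, against 4.26, 3.99 and 5.27 in Dek_fl replicates 1, 2 and 3. At Foxp1 the folds were lower still, at 3.74, 3.75 and 5.55 in Dek_cKO, against 2.92, 3.01 and 4.87 in Dek_fl. At Elf1 they were 6.23, 6.57 and 4.99 in Dek_cKO and 5.64, 5.07 and 6.56 in Dek_fl.

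Starts of transcription inside the host gene were a minority. The sequence table covered chromosomes 1 to 17, 19 and X, on which 5038 of the regions lie. Of these, 729 (14.5%) held a RefSeq start of a protein-coding gene, in each case a start of a host gene, and 144 held a start of a non-coding gene, 61 of them both. The remaining 4226 (83.9%) held no start in the table. With replicates 1 and 2 alone, where 17246 regions met the rule, the share with a coding start was 5.95%. The share with a coding start was 41.7% among the shared gene-body regions at or over percentile 90 and 76.2% among the shared gene-end regions. Over the range of strength within the 5227, the share was 14.6% below percentile 30, 12.6% from 30 to 50, 12.2% from 50 to 70 and 17.8% from 70 to 90. A non-coding gene end lay within 1 kb of 383 regions (7.33%), against 14.97% of all shared regions.

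Regions with a coding start were longer and had a higher peak −log10 p than regions with none, and the gap in rank by fold was smaller. The median called length with a start was 1507, 1398 and 692 bp in Dek_cKO replicates 1, 2 and 3 and 1254, 1544 and 706 bp in Dek_fl replicates 1, 2 and 3. Without a start it was 1228, 1130 and 513 bp in Dek_cKO and 955, 1275 and 497 bp in Dek_fl, so that the order was the same in 6 of 6 libraries. Ranked by −log10 p among the 19683 shared regions, the median percentile with a start was 53.6, 52.5 and 48.8 in Dek_cKO and 54.0, 52.7 and 52.3 in Dek_fl. Without a start it was 28.2, 29.9 and 34.3 in Dek_cKO and 29.6, 29.1 and 31.5 in Dek_fl. Ranked by fold, the medians were 39.1, 39.3 and 39.9 with a start and 37.8, 38.7 and 36.9 without one in Dek_cKO, and 44.3, 38.0 and 43.1 with a start and 34.8, 39.4 and 33.9 without one in Dek_fl. The gap by fold was smaller than that by −log10 p in 6 of 6 libraries, and it was reversed in Dek_fl replicate 2. Members are not replicates of a condition, and these differences are given without a test.

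**Figure D1:**
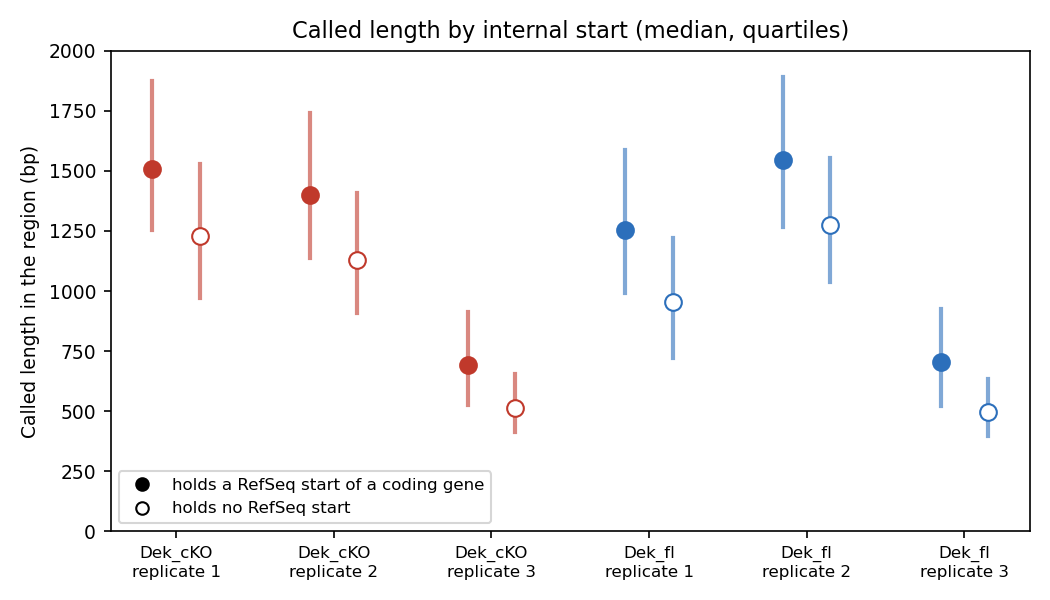
Called length in base pairs (y axis) of the gene-body regions in each library (x axis), as median (point) and quartiles (line), for regions that hold a RefSeq start of a coding gene (filled) and regions that hold no start (open), with Dek_cKO in red and Dek_fl in blue. In every library the filled point lies above the open one, and both replicate 3 libraries lie lowest.

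The DNA around these internal starts was rich in CpG. The 862 coding windows whose start fell in one of the regions had a median of 20 CpGs and a GC content of 61.7%, against 22 CpGs and 62.0% in the 9226 windows with a start in a shared gene-end region and 13 CpGs and 56.7% in all 21037 coding windows. Short motifs of 6 factor families were searched on both strands as plain letters. The AP-1 letters TGANTCA were in 6.84% of the internal-start windows, 3.92% of gene-end windows and 7.04% of all coding windows. The GATA letters AGATAA were in 5.57%, 5.40% and 9.69% of the same sets. The RUNX letters TGTGGT were in 13.2%, 11.6% and 14.75% of the same sets. The ETS letters AGGAAG were in 34.8%, 31.5% and 34.1% of the same sets. The E-box letters CAGCTG were in 14.0%, 13.6% and 15.7% of the same sets. A core of the CTCF motif was in 2.55%, 2.94% and 2.37%. The internal-start windows were thus nearer to the gene-end windows than to all coding windows for GATA, and nearer to all coding windows for AP-1. Of the 5 windows printed above, the one at Elf1 held the only match, an AP-1 match 23 bases before the start. Matches of different motifs can share bases, and a match describes letters and not binding.

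MicroRNA hairpins were rarely within the regions. Of 1005 hairpins in the RefSeq table, 7 overlapped a member, among 78 that overlapped any shared region. Mir148a, whose mature miRNA is abundant in many tissues and targets DNMT1 in human cells, lay in the region chr6:51269617-51271568 within the gene model Gm38821. It is shown, with its seed (bases 2 to 8) in capitals, as the hairpin of a miRNA with known roles in blood cells.
mmu-miR-148a-3p: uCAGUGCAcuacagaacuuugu
mmu-miR-148a-5p: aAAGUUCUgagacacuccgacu
That region had folds of 8.17, 9.07 and 8.58 in Dek_cKO, against 6.12, 7.18 and 8.90 in Dek_fl, and a mean percentile of 75.8. The other hairpins were Mir1955 (in Phf21a), Mir5620 (Clcn4), Mir330 (Eml2), Mir7687 (Gse1), Mir1904 (Pde4d) and Mir6541 (Wdfy2), and no pair of their mature miRNAs shared a seed.

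The word moderate covers a wide range, since the rule sets only an upper limit. Mean percentiles ran between 0.476 and 89.99 with a median of 62.4 and quartiles of 47.4 and 74.9, and 65 regions were under percentile 10 while 787 lay between 80 and 90. Just under the limit were regions in Ttll7, Abraxas1, Cfdp1, Rbbp8 and Zfp984, with mean percentiles of 89.9 to 89.99, and just over it regions in Clasp1, Adcy2, Tafa4, Ext1 and Pde3b, with 90.03 to 90.08. Their folds overlapped throughout. The Zfp984 region had folds of 9.13, 10.5 and 13.6 in Dek_cKO and 7.63, 8.58 and 10.3 in Dek_fl, and the Clasp1 region had 8.49, 9.55 and 12.4 in Dek_cKO and 7.41, 7.99 and 13.5 in Dek_fl.

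The regions lay in the upper part of the lists of replicates 1 and 2 and about or under the middle of those of replicate 3. The median fold was 6.53, 7.24 and 8.30 in Dek_cKO replicates 1, 2 and 3 and 5.37, 5.86 and 7.40 in Dek_fl replicates 1, 2 and 3. As a percentile of the list this was 70.4, 73.4 and 49.9 in Dek_cKO and 68.2, 70.9 and 43.7 in Dek_fl. The 2 replicate 3 lists, which are shorter and keep only stronger peaks, gave the low values in both groups, and the groups overlapped. Among the shared regions alone the medians were closer, at 37.9, 38.6 and 37.3 in Dek_cKO and 35.9, 39.1 and 35.2 in Dek_fl. The rule removed the strongest gene-body regions, so these levels are not set against other classes. The members took 7.49%, 7.46% and 19.7% of all peaks in the Dek_cKO lists and 10.3%, 7.40% and 22.3% in the Dek_fl lists.

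**Figure D2:**
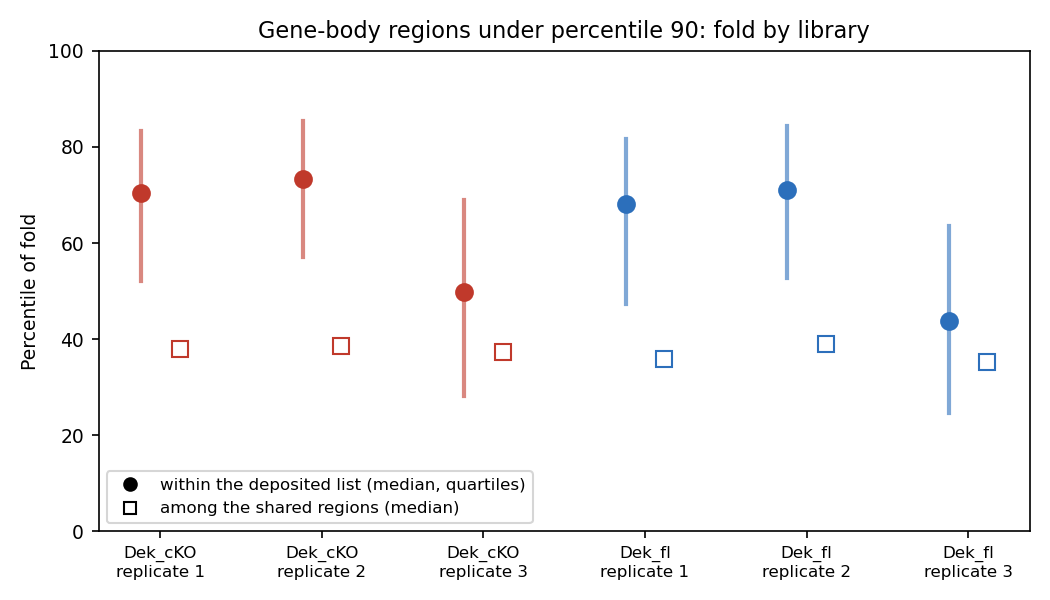
Percentile of fold (y axis) of the gene-body regions under percentile 90 in each library (x axis), within the deposited list as median (filled circle) and quartiles (line) and among the 19683 shared regions as median (open square), with Dek_cKO in red and Dek_fl in blue. Within the list both replicate 3 libraries lie lowest, at medians of 49.9 (Dek_cKO) and 43.7 (Dek_fl), and among the shared regions all 6 lie between 35.2 and 39.1.

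The regions were deep inside their hosts. The distance to the nearest coding gene end had a median of 16788 bp, with quartiles of 6515 and 42058 bp, and reached 730811 bp. The merged regions had a median length of 1432 bp, with quartiles of 1169 and 1756 bp. The longest by mean called length were in Kdm6b, which encodes a histone H3K27 demethylase, in Lcp1, which encodes the actin-bundling protein L-plastin of blood cells, and in Smim3. The Kdm6b region (chr11:69408595-69411875) was called over 3273, 3120 and 1565 bp in Dek_cKO and over 3277, 3170 and 3062 bp in Dek_fl, yet its mean percentile of fold was 13.8. The Lcp1 region, of 3572, 3171 and 849 bp in Dek_cKO and 3516, 3569 and 915 bp in Dek_fl, was likewise low by fold, at percentile 17.2. Over the 5038 regions on the chromosomes of the sequence table, the median of the mean called length was 803 bp below percentile 30, 914 bp from 30 to 50, 986 bp from 50 to 70 and 1010.5 bp from 70 to 90. Called length thus grew with fold over these regions, while those of Kdm6b and Lcp1 were long and low.

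Summits, the point of highest signal in a peak, were close between libraries. Within replicates 1 and 2, median distances between the summits of a member in 2 libraries were 41 to 45 bp between labels and 36 to 48 bp within a label. Between the replicate 3 libraries, which differ in label, the median distance was 56 bp. Between replicate 3 and the other libraries the median distances were 71 to 77 bp, whatever the labels. The placement of the summits thus differed more by batch than by label.

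A total of 3302 of 21631 protein-coding genes (15.3%) hosted at least 1 region, and 36 regions lay in more than 1 gene. Among genes of at least 30 kb the hosts were 2477 of 7498 (33.0%). The share grew with gene length, being 0% under 2 kb, 1.93% from 2 to 10 kb, 11.3% from 10 to 30 kb, 26.0% from 30 to 100 kb, 47.1% from 100 to 300 kb and 49.9% above 300 kb. Most hosts (2232) had 1 region, 614 had 2 and 249 had 3. Chromosome X had the fewest, with 73 regions or 1.60 per Mb of coding gene body, against 3.92 to 6.52 on the autosomes.

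A total of 13 genes had 9 or more regions. Gse1, a protein found in histone deacetylase corepressor complexes, had 13 in 353 kb. Zmiz1, a coactivator of NOTCH1, and Prkce, protein kinase C epsilon, had 12 each, as did Arhgap26, a GTPase-activating protein. Pde4d, a cAMP phosphodiesterase, had 11 in 1302 kb, and Ctif, a translation initiation factor, Arid1b, a subunit of the BAF chromatin remodeller, and Foxp1 had 10 each. The 5 genes with 9 were Tiam1, an exchange factor for Rac, Hivep3, a zinc finger protein, Slc39a11, a zinc transporter, Nfia, a nuclear factor I protein, and Nav2, a neuron navigator protein. Per length Zmiz1 was the densest of the 13, at 5.75 regions per 100 kb, and Pde4d the sparsest, at 0.845, against 0.504 over all coding genes.

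In Gse1 and Zmiz1 the regions ranged over most of the scale of strength, and in Arhgap26 over less of it. In Gse1 the mean percentiles ran between 5.37 and 86.7. Its strongest member, at chr8:120300379-120301365, had folds of 9.78, 10.7 and 10.7 in Dek_cKO and 7.59, 8.42 and 9.72 in Dek_fl, and its weakest, at chr8:120535967-120537721, had 2.73, 3.17 and 3.68 in Dek_cKO and 2.41, 2.38 and 4.29 in Dek_fl. Both were picked by the mean over these libraries, so their order is not a result. In Zmiz1 the percentiles ran between 12.2 and 83.3, and the member at chr14:25645843-25646929, at percentile 78.0, had folds of 7.92, 7.42 and 12.0 in Dek_cKO and 5.63, 6.31 and 10.7 in Dek_fl. In Arhgap26 they ran between 45.4 and 78.5.

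**Figure D3:**
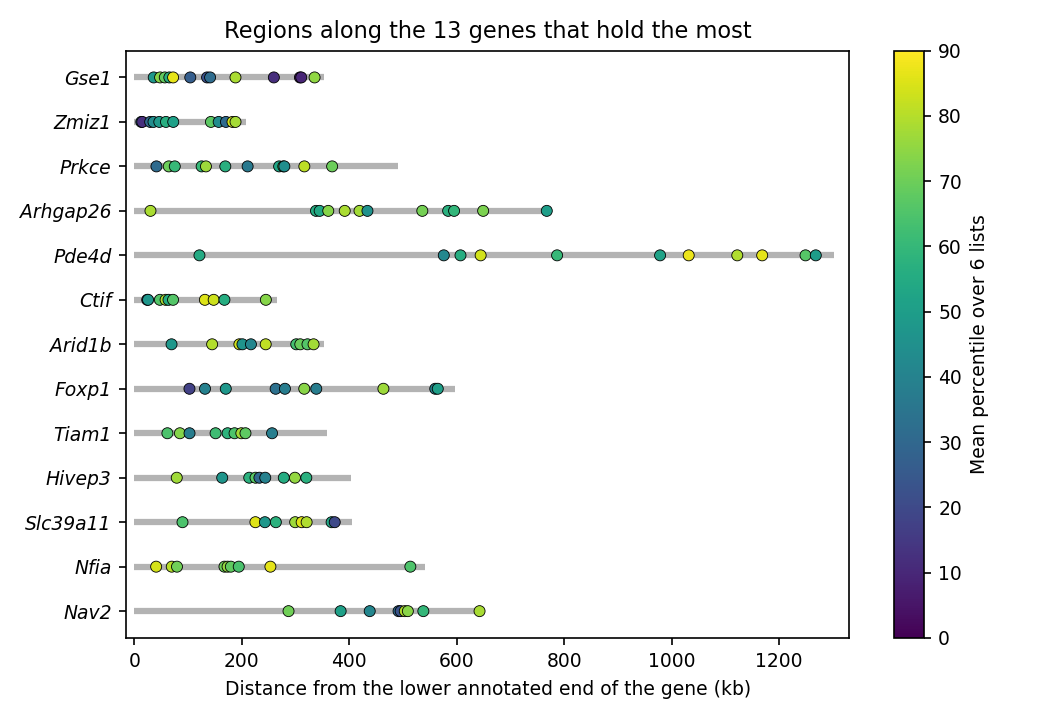
Positions of the gene-body regions (points) along the 13 genes that hold 9 or more (rows), as distance in kb from the lower annotated end of the gene (x axis), with the gene drawn as a grey bar and the point colour giving the mean percentile of fold over the 6 lists. Gse1 has 13 regions of percentile 5.37 to 86.7, and the 12 of Arhgap26 leave a long stretch near its lower end with a single region.

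Most regions had no near neighbour. Of the 5227, 1186 (22.7%) had another member within 10 kb, against 14.7% for gene-end regions and 21.5% for regions outside genes, each to its own class, and the median gap between neighbours was 37646 bp. The share depended on which lists set the members, being 13.9% in lists trimmed to equal length and 47.8% with replicates 1 and 2 alone. The classes differ in number and in the genome they can cover, whose part in these shares was not tested. Linked at 10 kb, 4041 regions stood alone, 447 runs had 2 members, 62 had 3, 20 had 4, 4 had 5 and 1 had 6.

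The run of 6 lay in Pik3ap1, which encodes BCAP, an adaptor that couples receptors to PI3 kinase in B cells and other blood cells, at chr19:41320804-41355336. Its members had mean percentiles of 22.7 to 79.6. The strongest, at chr19:41344519-41346010, had folds of 7.68, 8.52 and 11.1 in Dek_cKO and 7.89, 6.85 and 8.53 in Dek_fl. The runs of 5 were in Plec (the cytoskeletal linker plectin), Ccnd3 (cyclin D3), Igfbp7 (a secreted protein that binds insulin-like growth factors) and Smad3 (a mediator of TGF-beta signalling), and they spanned 18.8, 24.7, 29.5 and 33.2 kb. Within the Plec run the member at chr15:76197961-76199930 was among the weakest of all, with folds of 2.16, 2.70 and 2.68 in Dek_cKO and 2.53, 2.44 and 2.99 in Dek_fl. In the Smad3 run the member at chr9:63705947-63707151 was near the upper limit, with 8.36, 8.97 and 12.1 in Dek_cKO and 7.53, 7.60 and 12.5 in Dek_fl. No other shared region lay inside any of these 5 runs.

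Gene lists of blood cell biology, chosen with earlier results of these data known, were then read for hosts. Of 41 genes listed as transcription factors of stem cells, 27 hosted 78 regions, or 1.30 per 100 kb, against 0.504 for all coding genes. The list also holds Zfp36l2, which encodes an RNA-binding protein. Foxp1 had 10, Nfia 9, and Runx1 and Meis1, a homeodomain factor of stem cell maintenance, 6 each. In Runx1 the strongest member, at chr16:92620437-92622162, had folds of 7.12, 7.22 and 14.9 in Dek_cKO and 6.81, 6.44 and 13.5 in Dek_fl, and the weakest, at chr16:92821711-92822836, had 3.44, 3.59 and 3.95 in Dek_cKO and 3.62, 3.25 and 3.49 in Dek_fl. In Meis1 the member at chr11:18923463-18925786 reached percentile 87.7, with folds of 7.55, 8.55 and 15.3 in Dek_cKO and 7.09, 7.05 and 13.2 in Dek_fl. All 9 in Nfia lay between percentile 64.2 and 86.2. Of the 11 listed genes under 30 kb, Tal1 (percentile 52.7), Lmo2 (35.7) and Gata2 (46.1) had 1 each, and the other 8 (Lyl1, Gfi1, Gfi1b, Nfe2, Hoxa9, Hoxb4, Cebpa and Zfp36l2) had none. Among the longer ones Mecom (558 kb) and Mllt3 (263 kb), both factors of stem cell identity, hosted none.

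Signalling genes were hosts too. Among 30 kinases and phosphatases of blood cell signalling, 24 hosted 71 regions (1.75 per 100 kb), led by Prkce (12), the receptor phosphatase gene Ptpre (7), Camk2d (6) and Prkcb (5). Of 20 cytokine and growth factor receptors, 7 hosted 19 (1.48 per 100 kb), among them Flt3, a receptor of early progenitors, and Igf1r with 5 each, while Kit, Tek and Bmpr2 had none. The strongest of the 5 in Flt3, at chr5:147339913-147342070, had folds of 7.81, 8.64 and 11.3 in Dek_cKO and 6.86, 6.38 and 10.8 in Dek_fl. In the PI3K-AKT-mTOR list 12 of 26 genes hosted 22 (1.12 per 100 kb), with 3 each in Deptor, an inhibitor of mTOR, Inpp5d, which encodes the phosphatase SHIP1, and Pik3cd, the leukocyte catalytic subunit p110 delta. The single region in Mtor had folds of 9.04, 9.54 and 7.55 in Dek_cKO and 6.45, 7.93 and 11.7 in Dek_fl, so its replicate 3 pair ran opposite to the other pairs.

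Among 45 chromatin regulators, 22 hosted 55 regions (1.07 per 100 kb). Arid1b had 10, Dnmt3a had 6, and the remodeller gene Chd7 had 4, whereas Setbp1 (360 kb), Kmt2c (227 kb), Ncor1 (142 kb) and Crebbp (133 kb) had none. The Dnmt3a member at chr12:3855442-3856766 had folds of 6.41, 8.13 and 15.2 in Dek_cKO and 6.89, 5.79 and 13.9 in Dek_fl, well above the one at its internal start, where they were 4.81, 4.75 and 5.58 in Dek_cKO and 3.85, 4.52 and 6.24 in Dek_fl. Of 20 adhesion genes 13 hosted 16, with 2 each in Angpt1, Itga2b and Itgb3. Of 9 surface markers of stem and progenitor cells, Flt3 had 5, Cd34 and Ptprc 1 each, and Procr and Fcgr3 none. Kit, Ly6a, Slamf1 and Cd48, which encode the proteins used in this sort, had none either.

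By density, lists of mature blood cells and of other tissues were near or under the level of all genes. Of 20 B and T cell genes 4 hosted 5 regions (0.489 per 100 kb), in Gata3 (2), Lck, Lef1 and Pax5. Of 20 myeloid and erythroid effector genes 2 hosted 1 each, Ank1 and Itgam (0.539 per 100 kb), and most genes of that list are short. Of 20 keratin and neuronal genes 6 hosted 8, at 0.055 per 100 kb, and of these Cntnap2, Nrxn3, Csmd1, Dlg2 and Dmd are above 1 Mb. Among genes of at least 30 kb the share of hosts was 22 of 26 for the kinases and phosphatases, 24 of 30 for the transcription factors, 10 of 14 for adhesion, 12 of 21 for PI3K-AKT-mTOR, 6 of 11 for the receptors, 21 of 39 for the chromatin regulators, 3 of 6 for the lymphoid list, 2 of 4 for the surface markers, 2 of 2 for the myeloid and erythroid list and 6 of 13 for the keratin and neuronal list, against 33.0% over all such genes. By this share each of these 10 lists, those of mature cells and other tissues included, lay above all genes. Of the 5 endothelial markers 3 hosted regions, 2 in Vwf and 1 each in Cdh5 and Pecam1, and Kdr and Emcn hosted none. The region in Cdh5, whose gene ends had no peak, had folds of 7.34, 10.7 and 14.7 in Dek_cKO and 4.18, 6.61 and 12.0 in Dek_fl.

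**Figure D4:**
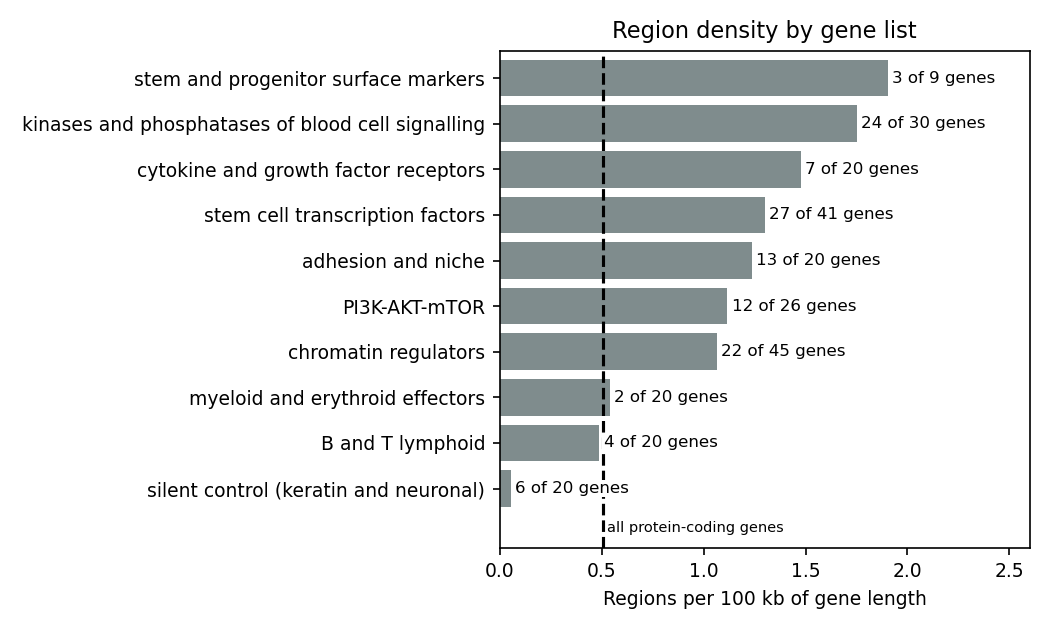
Gene-body regions per 100 kb of gene length (x axis) for 10 gene lists (rows), with the number of host genes of all genes in the list beside each bar and a dashed line at the level of all protein-coding genes (0.504). The bar of the surface markers, with 5 of its 7 regions in Flt3, reaches 1.91, that of the kinases and phosphatases 1.75 and that of the keratin and neuronal genes 0.055.

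Whether the regions ranked differently between the groups was tested by limma on rank scores. The fold was ranked within each library over the 19683 shared regions and turned into normal scores, and p-values were adjusted over all of them (Benjamini-Hochberg, threshold 0.05). The rule took the mean of the 6 libraries, not a difference between groups, but a region missing from any list could not be a member, which limits how far members can differ. Of the 5227, 0 were higher and 0 lower in Dek_cKO, as were 0% of all shared regions in each direction. At an unadjusted p under 0.05, 21 were higher (0.402%, against 0.345% of all shared regions) and 3 lower (0.0574%, against 0.0965%). This fit holds no batch term, so differences between replicate 3 and the other libraries count as spread and can enlarge its p-values. The absence of calls therefore does not show that the groups are alike. With a batch term 199 were higher (3.81%, against 2.77%) and 58 lower (1.11%, against 1.53%) at the unadjusted threshold. With the replicate number as a block, 0 members passed in either direction at the adjusted threshold, against 0.00508% of all shared regions higher and 0% lower, and 211 higher (4.04%, against 2.97%) and 54 lower (1.03%, against 1.47%) at the unadjusted one. The rank scores of the groups did not overlap in 140 regions with Dek_cKO higher (2.68%, against 2.10% of all shared regions) and in 94 with Dek_cKO lower (1.80%, against 2.27%). A higher rank can mean a larger share of cells with the site open or more cutting per cell, which cannot be told apart here.

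The median difference in rank score (Dek_cKO minus Dek_fl) was 0.0206 over the members and −0.0178 over all shared regions. It was −0.0589 for gene-end regions and 0.0470 for regions outside genes. Members with a coding start had a median of −0.0628, close to the gene-end value. By library the groups overlapped. The median percentile of fold among shared regions was 57.4, 57.5 and 60.3 in Dek_cKO and 62.7, 55.4 and 62.8 in Dek_fl for gene-end regions. Outside genes it was 47.7, 46.8 and 43.1 in Dek_cKO and 40.9, 49.6 and 41.1 in Dek_fl. In both classes Dek_fl replicate 2 ran opposite to the other Dek_fl libraries. Because ranks are relative, a lower rank of gene-end regions raises the others. Over the gene lists the medians lay between −0.117 for the 16 regions of the adhesion list and 0.197 for the 5 of the B and T cell list. In the list of transcription factors the rank scores of the groups did not overlap at 2 regions with Dek_cKO higher and 3 with Dek_cKO lower, of 78. No listed region passed the adjusted threshold.

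Regions of smallest p with Dek_cKO higher were in Slc41a3, Lifr, Inpp4b, Srpk2 and Pold1. The Slc41a3 region (chr6:90629250-90630552), in the gene of a magnesium transporter, had folds of 6.42, 7.20 and 7.83 in Dek_cKO and 3.67, 4.24 and 5.50 in Dek_fl. Its rank scores, −0.36, −0.31 and −0.47 in Dek_cKO and −1.42, −1.18 and −1.24 in Dek_fl, did not overlap, and the difference of 0.90 (SE 0.28, n = 3 per group) had an adjusted p of 1.0 (limma). The region in Lifr (chr15:7113613-7114775), the receptor gene for leukemia inhibitory factor, had folds of 11.8, 11.6 and 10.9 in Dek_cKO and 5.64, 7.60 and 7.09 in Dek_fl. By rank score it was higher in Dek_cKO in each of the 3 pairs of equal replicate number, which are not known to share an origin. The groups overlapped, with 2.23, 1.53 and 0.42 in Dek_cKO and −0.22, 0.63 and −0.49 in Dek_fl. The difference was 1.42 (SE 0.49; adjusted p 1.0, limma), and 1.67 in replicates 1 and 2 and 0.91 in replicate 3. With the replicate block the adjusted p was 0.15, the lowest of any member named here, shared with Inpp4b.

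Inpp4b encodes a phosphatase of PI3 kinase signalling, and its region (chr8:81374724-81375564) had folds of 4.41, 7.50 and 11.1 in Dek_cKO and 2.82, 3.91 and 5.06 in Dek_fl. The rank difference was 1.35 (SE 0.48, adjusted p 1.0, limma) and the groups barely separated, at −1.37 for the lowest Dek_cKO library and −1.39 for the highest Dek_fl library. Srpk2, a kinase of splicing factors, had a region (chr5:23597750-23598913) with folds of 11.4, 11.7 and 11.1 in Dek_cKO and 6.63, 7.32 and 7.87 in Dek_fl. It is also the region of smallest p among those narrower in Dek_cKO, being called over 639, 552 and 425 bp in Dek_cKO and 750, 1164 and 632 bp in Dek_fl, so that fold and called length differed in opposite directions. The Pold1 region, in the gene of the catalytic subunit of DNA polymerase delta, lay 1138 bp from a gene end and had folds of 5.60, 7.03 and 8.93 in Dek_cKO and 3.44, 4.67 and 5.36 in Dek_fl.

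Regions of smallest p with Dek_cKO lower were in Cyth1, Kirrel3, Vwa1, Xkrx and Il2ra, with differences of −0.79, −0.86, −0.68, −0.71 and −0.82 and adjusted p-values of 1.0 (limma). Their folds did not follow their ranks in every pair of equal replicate number. The Vwa1 region had folds of 8.12, 8.81 and 9.62 in Dek_cKO and 7.51, 8.35 and 12.4 in Dek_fl, so Dek_cKO was higher in replicates 1 and 2. At Kirrel3, Xkrx and Il2ra the fold of replicate 2 was also higher in Dek_cKO. All other pairs of these 5 regions were lower in Dek_cKO by fold. The Cyth1 region (chr11:118232181-118232890), in the gene of an exchange factor for ARF proteins, had folds of 5.19, 5.22 and 5.77 in Dek_cKO and 5.60, 5.23 and 7.86 in Dek_fl, and rank scores of −0.94, −1.16 and −1.31 in Dek_cKO and −0.24, −0.62 and −0.20 in Dek_fl. The Il2ra region (chr2:11653049-11654001), in the gene of the interleukin-2 receptor alpha chain CD25, had folds of 6.02, 6.22 and 5.40 in Dek_cKO and 6.85, 5.81 and 7.27 in Dek_fl. The groups did not overlap by rank score in any of these 5 regions, and the Xkrx region alone of them holds an internal start of its host.

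**Figure D5:**
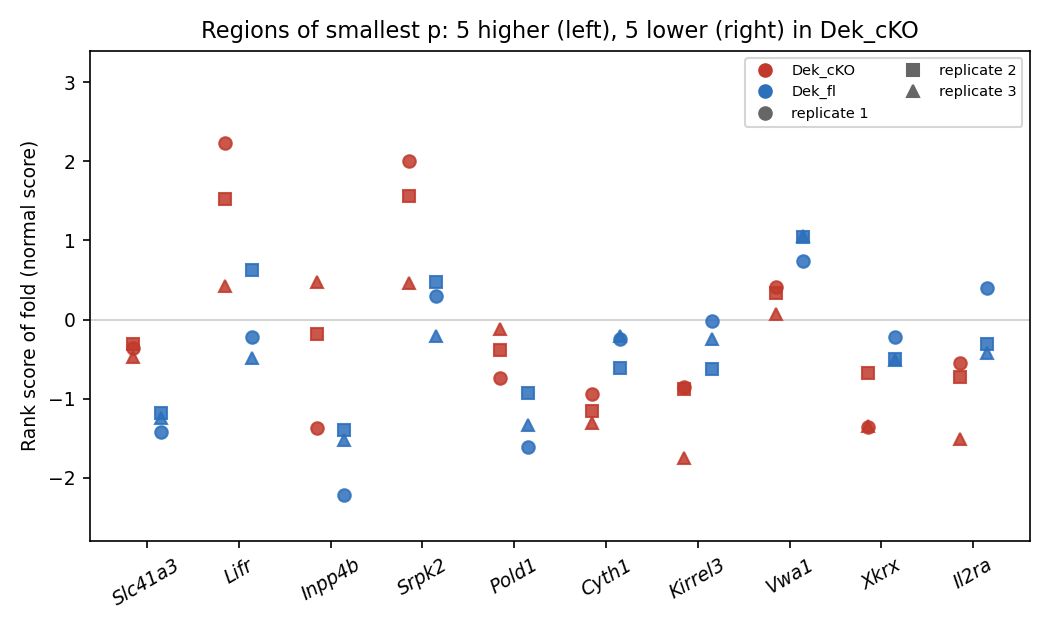
Rank score of fold (y axis, normal score over the 19683 shared regions) in each library at the regions of smallest p, 5 with Dek_cKO higher (left) and 5 with Dek_cKO lower (right), named by host gene (x axis), with Dek_cKO in red left of Dek_fl in blue and the symbol giving the replicate. At Lifr and Srpk2 the groups overlap by a small margin, and at the other 8 they do not.

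Called length was compared in the same way on a log2 scale. The median called length of the 5227 regions was 1270, 1171 and 535 bp in Dek_cKO replicates 1, 2 and 3 and 995, 1315 and 520 bp in Dek_fl replicates 1, 2 and 3, so the replicate 3 libraries were shortest in both groups and the groups overlapped. In the fit 0 were wider and 0 narrower in Dek_cKO at an adjusted p under 0.05, against 0% of all shared regions in each direction, and 0 at an unadjusted p under 0.05 (limma). This fit too holds no batch term, so the shorter lengths of replicate 3 count as spread, and the absence of calls does not show equal lengths. With the replicate block 0 passed the adjusted threshold, and 92 were wider (1.76%, against 1.20% of all shared regions) and 19 narrower (0.363%, against 0.224%) at the unadjusted one. The smallest p among those wider was in Pag1, which encodes an adaptor that recruits the kinase CSK, with 1273, 1910 and 822 bp in Dek_cKO and 359, 1038 and 526 bp in Dek_fl, a log2 difference of 1.12 (SE 0.53, adjusted p 1.0, limma). The Satb1 region, in the gene of a chromatin organizer of lymphoid and stem cells, had 2678, 1705 and 1197 bp in Dek_cKO and 1110, 1545 and 501 bp in Dek_fl, and the Dlgap1 region had 2334, 1956 and 701 bp in Dek_cKO and 807, 1372 and 293 bp in Dek_fl. Besides Srpk2, the regions narrower in Dek_cKO were in Sema4d and Cdh17, with log2 differences of −0.58 and −0.65.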

How the data were processed

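ATAC-seq peak lists of 6 libraries, 3 labelled Dek_cKO and 3 labelled Dek_fl, were used. The tools named in the submitters' processing notes are MACS2, Picard and Bowtie2, on build mm10, and no source used here gives their versions, their settings or a shift of reads for Tn5. The authors deposited 1 list per library, each called on its own. Each deposited row holds an interval, a summit position, a score, a fold over background and 2 significance values (−log10 of the p-value and of the q-value). The deposited fold, score and −log10 values are the authors' own and served to rank and describe peaks. No reads or depths are in the lists, so no counting interval is given.

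Peaks were merged, placed on RefSeq genes (GRCm38.p6, 49554 genes, 21631 protein-coding, without exons, so exon, intron and UTR positions are not given), and ranked with Python 3.11.15. limma 3.58.1 (R 4.3.3) was fitted to normal scores of fold and to log2 called length over 19683 shared regions. A check on simulated rank scores used noise independent between libraries, so it covers neither the batch structure of these data nor the lengths. The members and lists were chosen with earlier results of these data known. Named regions are the 10 genes with most members (with ties), the 5 largest runs, the 5 (rank) and 3 (length) smallest p per direction, the 3 widest, the 5 on each side of percentile 90 and up to 4 top hosts per list (some items covered by this rule are not reported here); other genes named (such as Tal1, Mtor, Cdh5, the 5 sequence windows and genes hosting none) were chosen after their values were seen. All 277 listed genes matched by symbol. Deviations from group means correlated between libraries of the same number at 0.27, 0.52 and 0.74 for rank scores, and the numbers were taken as pairs. However, Dek_cKO replicate 1 correlated more with Dek_fl replicate 2 (0.57), and Dek_fl replicate 1 more with Dek_cKO replicate 2 (0.31). Only the replicate 3 pair held the highest value for both of its libraries, so the pairing within replicates 1 and 2 is an assumption. No 2 lists shared more than 34 identical intervals. The alternatives tried were the replicate block, a batch term, ranks of −log10 p, centred lengths, other thresholds, distances and merging, single batches, and leaving out each library.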

Additional observations from a re-analysis of the deposited data

How the results depend on the processing

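The fits called 0 members in each direction, for rank and for length, under every alternative run: the replicate block, the batch term, ranks of −log10 p, centred lengths, replicates 1 and 2 only and each library left out. The block (pairing by replicate number) therefore changed no call. The 16 named differences were picked by smallest p in these libraries, and every alternative reuses them. The block and batch terms leave the estimate of a difference unchanged by design. That the sign was kept in all 160 alternative values is therefore not independent support, and 0 passed the threshold. The member count was 17246 in 6920 host genes with replicates 1 and 2 alone, since the short replicate 3 lists decide what is shared; in the other settings it ran between 3488 (equal-length lists) and 6905 (without Dek_fl replicate 3). The share with a neighbour within 10 kb, 22.7%, was 21.5% at −log10 q of at least 5, 13.9% in equal-length lists, 47.8% with replicates 1 and 2 alone, 10.1% at 5 kb and 35.9% at 20 kb, and 22.4% to 26.9% with a library left out. The share near a non-coding gene end was 8.63% in equal-length lists and 5.85% with replicates 1 and 2, and 6.75% to 7.40% with a library left out. The share with a coding start, 14.5%, was 19.6% in equal-length lists, 12.9% beyond 2 kb from gene ends, 13.3% under percentile 80, 5.95% with replicates 1 and 2, 13.0% with replicate 3 alone, and 11.7% to 14.5% with a library left out (both alternatives by batch were chosen after seeing the data, as was this share). The median percentile difference (Dek_cKO minus Dek_fl) of 3.62 points turned to −0.77 without Dek_cKO replicate 2 and −4.99 without Dek_fl replicate 3. The difference in median called length of 48.7 bp turned to −90.3, −40.8 and −163 bp without Dek_cKO replicate 1, Dek_cKO replicate 2 and Dek_fl replicate 3. The causes were not tested. A filter on low values could not be varied, since an uncalled region has no value.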
